A study of Mus musculus with 3 samples.

Results

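The adenylyl cyclases are the 10 mouse genes *Adcy1* to *Adcy10*, taken by gene symbol from the 22698 genes measured by RNA-seq in melan-a cells. All 10 were found, each under 1 Ensembl identifier. The only experiment was RNA-seq of untreated melan-a cells, an immortalized line of mouse melanocytes on a C57BL/6J background, in 3 biological replicates numbered 1, 3 and 4. The labels describe the cells as derived from Ink4a-ARF-/- mice. Every replicate was grown at 37°C with 10% fetal bovine serum, 200 nM 12-O-tetradecanoylphorbol 13-acetate, a phorbol ester that activates protein kinase C, and 200 pM cholera toxin, which locks the stimulatory G protein alpha subunit in its active form. There was no culture without cholera toxin and no other condition to compare with, and cAMP was not measured here.

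Adenylyl cyclases make cyclic AMP (cAMP) from ATP. In melanocytes the melanocortin receptor MC1R couples to the stimulatory G protein, whose alpha subunit switches on the membrane-bound cyclases, and cAMP then acts through protein kinase A and CREB on *Mitf* and the pigment genes. The membrane-bound enzymes, ADCY1 to ADCY9, all respond to the stimulatory alpha subunit and differ in their other inputs. Calcium with calmodulin stimulates ADCY1, ADCY3 and ADCY8, the beta-gamma subunits of G proteins stimulate ADCY2, ADCY4 and ADCY7, and calcium and the inhibitory alpha subunits restrain ADCY5 and ADCY6. ADCY9 is largely insensitive to forskolin. ADCY10 is the soluble cyclase, which senses bicarbonate and does not respond to G proteins.

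The levels are FPKM, fragments per kilobase of gene relative to the depth of the library, scaled between libraries by the authors and rounded to 2 decimals. From low values, which fall on whole reads, the scaled library sizes were estimated at 54000000, 46800000 and 66600000 reads in replicates 1, 3 and 4. A single read on one of the cyclase genes came to between 0.00120 and 0.00611 FPKM. The 8 melanocyte markers examined were all above 22 FPKM on average, from *Mitf* (22.1 ± 4.7 FPKM, SD, n = 3) to *Tyrp1* (3144 ± 434 FPKM). Of 16 markers of keratinocytes, fibroblasts, leukocytes and endothelium none reached 1 FPKM in all replicates, and their summed levels were 0.36 to 0.70, 0.06 to 0.14, 0.76 to 1.60 and 0.01 to 0.03 FPKM. Of the 16, *Krt1*, *Dpt*, *Lum*, *Ptprc*, *Itgam*, *Cd3e* and *Tek* were listed at 0, and the other 9 had means from 0.003 (*Cdh5*) to 1.19 FPKM (*Cd68*). Among 4 Schwann cell markers 3 passed 1 FPKM, where 44.1% of all genes did, and the sum was 6.84 to 8 FPKM. *Cdkn2a*, which holds the Ink4a and ARF transcripts, had 19.24, 16.49 and 24.32 FPKM. A value for the whole gene does not tell deleted exons from retained ones, so it does not check the genotype.

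In these cells *Adcy7* was the main adenylyl cyclase transcript, followed by *Adcy6*, *Adcy3* and *Adcy9*. These 4 of the 10 genes reached 1 FPKM in all 3 replicates, where 44.1% of all genes in the files did. The other 6 lay at or below 0.38 FPKM in every replicate, and *Adcy4* and *Adcy5* were listed at 0 throughout. The summed level of the 10 genes was 63.10, 65.74 and 52.85 FPKM in replicates 1, 3 and 4 (60.6 ± 6.8 FPKM, mean ± SD, n = 3), and the 4 higher genes made up 99.0%, 99.0% and 99.1% of it. The median over the 10 genes was 0.29 FPKM, beside 0.28 FPKM over all genes.

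**Figure D1:**
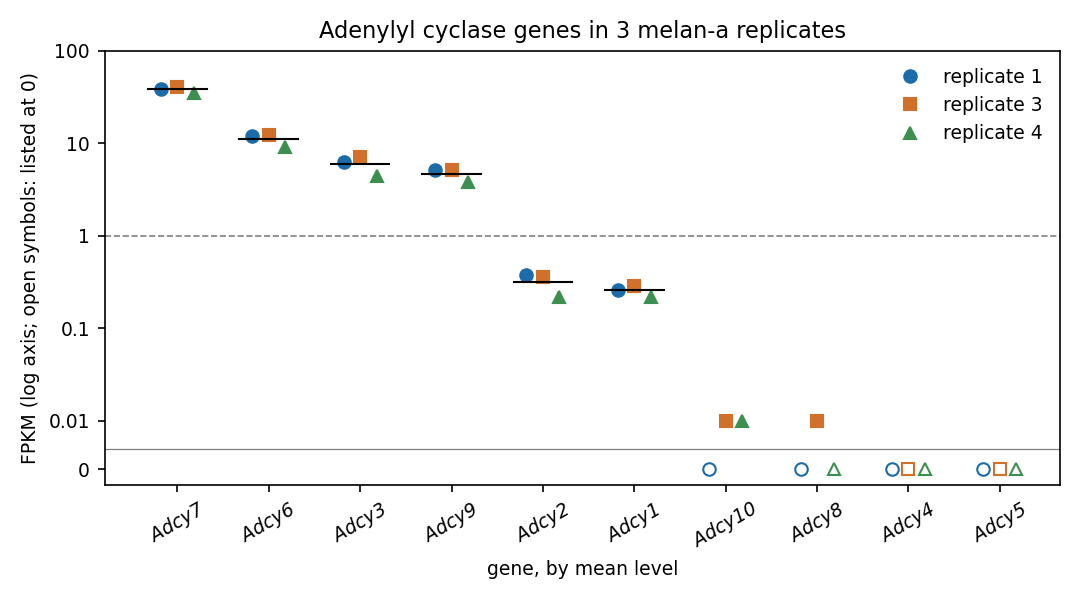
FPKM of the 10 adenylyl cyclase genes (log axis) in replicates 1, 3 and 4, ordered by mean level; black bars are means of at least 0.1 FPKM, open symbols are values listed at 0, the dashed line is 1 FPKM and the thin line is 0.005 FPKM, below which the files print 0. *Adcy7*, *Adcy6*, *Adcy3* and *Adcy9* sit above 3.8 FPKM in every replicate, *Adcy2* and *Adcy1* between 0.22 and 0.38, and the other 4 at 0.01 or 0.

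*Adcy7* (mm9 chromosome 8, plus strand, 90796302 to 90853861) has 5 annotated transcripts. It belongs to the class stimulated by beta-gamma subunits. Replicates 1, 3 and 4 gave 38.95, 40.46 and 35.03 FPKM (38.1 ± 2.8, mean ± SD, n = 3). With rank 1796 of 22698 it stood above 92.1% of all genes. The values rest on an estimated 11986 to 14768 reads per replicate, so counting error was small, with a 95% Poisson interval in replicate 4 of 34.5 to 35.6 FPKM. *Adcy7* exceeded the sum of the other 9 genes in 3 of 3 replicates, by 1.61, 1.60 and 1.97 times.

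*Adcy6* was next in each replicate. It lies on the minus strand of chromosome 15 (98420425 to 98438064, 1 annotated transcript) and is of the class inhibited by calcium and by inhibitory alpha subunits. Its levels of 12.13, 12.42 and 9.09 FPKM averaged 11.2 ± 1.8 (SD, n = 3), which is rank 4978. The lowest *Adcy7* value, 35.03, was far above the highest *Adcy6* value, 12.42. Within replicates the ratio of *Adcy7* to *Adcy6* was 3.21, 3.26 and 3.85, which is 1.77 ± 0.14 on the log2(FPKM + 0.1) scale (SD, n = 3).

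*Adcy3* (chromosome 12, plus strand, 4133103 to 4213525, 8 annotated transcripts) encodes the cyclase best known from the cilia of olfactory neurons. It reached 6.28, 7.02 and 4.47 FPKM in the same order of replicates (5.92 ± 1.31, SD, n = 3) and rank 6958. Of its joined exon bases 22.1% are shared with exons of *Cenpo* on the opposite strand, a gene at 1.54, 1.62 and 1.81 FPKM. The libraries were stranded, but whether the counting used strand is not stated, and without it reads from that stretch cannot be told apart. None of the other members shared exon bases with another annotated gene.

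*Adcy9* (chromosome 16, minus strand, 4287529 to 4420498, 4 annotated transcripts) was measured at 5.10, 5.17 and 3.81 FPKM (4.69 ± 0.77, SD, n = 3; rank 7555). Replicate 4 was the lowest and the other two were nearly equal, the same pattern as for *Adcy6*. The ratio of *Adcy6* to *Adcy9* was accordingly 2.38, 2.40 and 2.39 in the 3 replicates, whereas that of *Adcy6* to *Adcy3* ran from 1.77 to 2.03.

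*Adcy2* and *Adcy1* were low but above a few reads. *Adcy2*, of the beta-gamma-stimulated class and best known from brain, had 0.38, 0.36 and 0.22 FPKM, from an estimated 86, 71 and 62 reads. *Adcy1*, a neuronal calcium-stimulated cyclase, had 0.26, 0.29 and 0.22 FPKM. Because its joined exons span 12522 bases, these small values still stand for 170 to 183 reads per replicate. At rank 11231 and 11407, both genes lay near the middle of all genes.

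For the remaining 4 genes almost no reads were counted. *Adcy10*, the soluble cyclase, was printed as 0, 0.01 and 0.01 FPKM, which at its length means at most 1 read in replicate 1, 2 to 4 in replicate 3 and 3 to 6 in replicate 4. *Adcy8*, a calcium-stimulated cyclase of brain, was at 0.01 FPKM in replicate 3, from 2 or 3 reads, and at 0 in the others. *Adcy4* and *Adcy5* were printed as 0 in 3 of 3 replicates, and with rounding this allows at most 1 read of *Adcy4* and at most 2 of *Adcy5* in any library. A level of 3 reads would have been 0.0129 to 0.0183 FPKM for *Adcy4* and 0.00643 to 0.00915 for *Adcy5*. These levels cover counting error only.

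**Figure D2:**
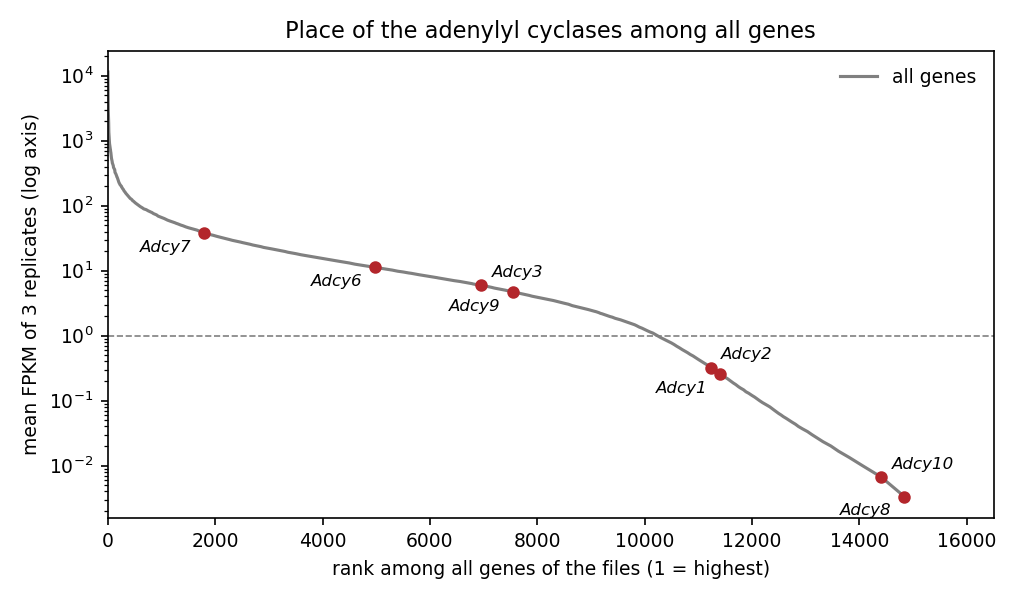
Mean FPKM of the 3 replicates (log axis) against rank among all 22698 genes (grey line), with the 8 adenylyl cyclases above 0 as red points and 1 FPKM as a dashed line. *Adcy7* stands at rank 1796, *Adcy6*, *Adcy3* and *Adcy9* between 4978 and 7555, and *Adcy10* and *Adcy8* at the end of the detected genes.

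Both genes of each pair are measured in the same libraries, so neighbours in the order of means were compared within replicates. They were called separate where the order held in 3 of 3 replicates and the ranges did not overlap. An exact two-sided sign-flip permutation test over 3 replicates cannot go below p = 0.25, and none was used for a call. Of the 9 pairs of neighbours 4 were separate, namely *Adcy7* over *Adcy6*, *Adcy6* over *Adcy3*, *Adcy9* over *Adcy2* and *Adcy1* over *Adcy10*. *Adcy3* was above *Adcy9* in 3 of 3 replicates, by 1.23, 1.36 and 1.17 times, but the ranges overlapped (4.47 to 7.02 and 3.81 to 5.17 FPKM). *Adcy2* and *Adcy1* also overlapped and were equal in replicate 4. Replicate 4 decided these overlaps, since without it 6 of the 9 pairs were separate, including *Adcy3* over *Adcy9* (6.65 and 5.14 FPKM) and *Adcy2* over *Adcy1* (0.37 and 0.28 FPKM). The widest step in the order above 0.1 FPKM was from *Adcy9* to *Adcy2*, a ratio of 13.4, 14.4 and 17.3.

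By regulatory class, cyclases stimulated by beta-gamma subunits made up 62.3%, 62.1% and 66.7% of the summed FPKM in replicates 1, 3 and 4 (63.7% ± 2.6, SD, n = 3). Nearly all of this was *Adcy7*, whose own share was 61.7%, 61.5% and 66.3%. The class inhibited by calcium and inhibitory alpha subunits, which here is *Adcy6* alone, held 18.4% ± 1.1. Calcium-stimulated cyclases held 10.1% ± 1.1, almost entirely through *Adcy3*, and *Adcy9* held 7.7% ± 0.5. The soluble *Adcy10* held at most 0.019% in any replicate. Shares are taken within a library and do not depend on its scale. Replicate 4 had the largest *Adcy7* share and the smallest shares of the other 3 genes.

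**Figure D3:**
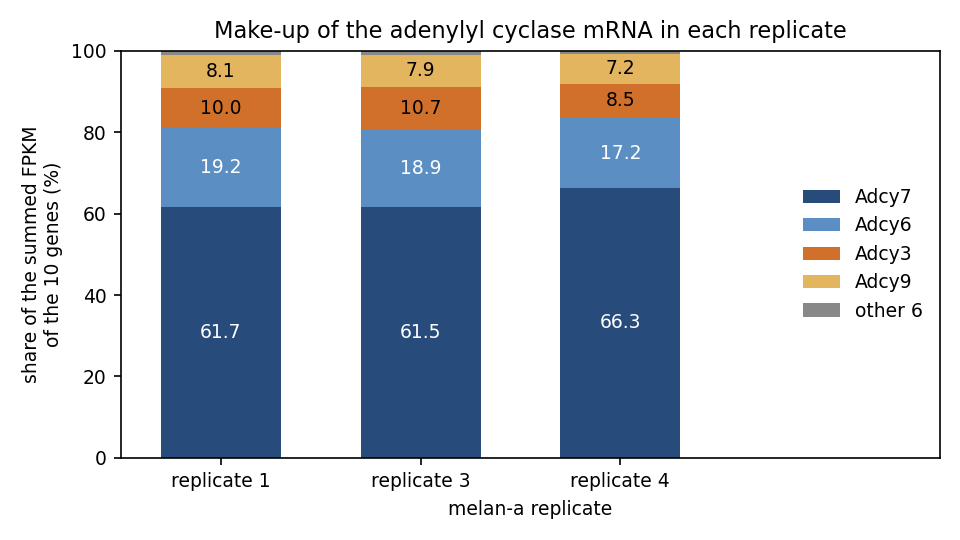
Share of the summed FPKM of the 10 adenylyl cyclase genes (%) in each melan-a replicate, stacked by gene, with the 6 low genes together in grey. *Adcy7* takes 61.5% to 66.3% of each bar and *Adcy6* 17.2% to 19.2%.

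All 4 genes above 1 FPKM were lowest in replicate 4. Their log2 ratio of replicate 3 over replicate 4 was 0.21 for *Adcy7*, 0.45 for *Adcy6*, 0.44 for *Adcy9* and 0.65 for *Adcy3*. The coefficient of variation over the 3 replicates was 7.35% for *Adcy7*, 16.4% for *Adcy6*, 16.3% for *Adcy9* and 22.1% for *Adcy3*, beside a median of 11.4% over the 10011 genes of at least 1 FPKM. In these libraries the ratio of replicates 3 and 4 moved with the GC content of the transcript. The longest coding transcripts of these 4 genes have 53.1% to 57.0% GC, above the median of 50.5%. Of all genes of at least 1 FPKM 45.6% were lowest in replicate 4, and of the 2089 genes in this GC range 77.8% were, with a median log2 ratio of 0.28. After the values of each replicate were adjusted for transcript GC content, the log2 ratios were 0.05 for *Adcy7*, 0.17 for *Adcy6*, 0.10 for *Adcy9* and 0.31 for *Adcy3*, and the coefficients of variation were 2.56%, 8.89%, 7.60% and 11.6%. Replicate 4 was still the lowest for all 4. With this adjustment *Adcy3* (5.07 to 6.28 FPKM) no longer overlapped *Adcy9* (4.32 to 5.02 FPKM).

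**Figure D4:**
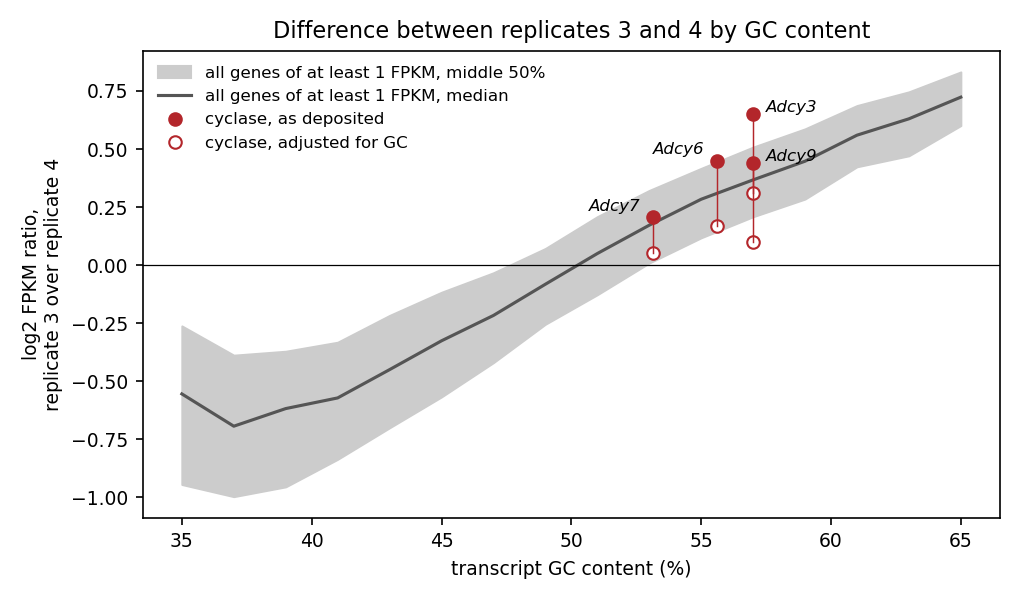
Log2 ratio of FPKM in replicate 3 over replicate 4 against transcript GC content (%), with the median (line) and middle 50% (grey band) of genes of at least 1 FPKM in GC bins, and the 4 higher cyclases as deposited (filled) and adjusted for GC content (open). *Adcy7* and *Adcy9* lie inside the band as deposited, *Adcy6* at 0.45 and *Adcy3* at 0.65 lie above it, and after adjustment the 4 genes lie between 0.05 and 0.31.

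The start regions of the genes are shown because, among the 8 genes with a window, their composition did not follow the order of the levels. They are 300-base windows from RefSeq on GRCm38.p6, 250 bases before and 50 after an annotated start, so their coordinates differ from the mm9 positions above. Of the 10 genes 8 matched the table, with 11 windows in all, and *Adcy6* and *Adcy8* did not. Printed 5′ to 3′ with every CpG in capitals are the 3 windows of *Adcy7*, the highest gene, the window of *Adcy9*, which was also expressed, and that of *Adcy5*, which was listed at 0. Which of its starts *Adcy7* used in these cells cannot be read from a value for the whole gene.
*Adcy7*, first window (chr8:88282742-88283041, plus strand): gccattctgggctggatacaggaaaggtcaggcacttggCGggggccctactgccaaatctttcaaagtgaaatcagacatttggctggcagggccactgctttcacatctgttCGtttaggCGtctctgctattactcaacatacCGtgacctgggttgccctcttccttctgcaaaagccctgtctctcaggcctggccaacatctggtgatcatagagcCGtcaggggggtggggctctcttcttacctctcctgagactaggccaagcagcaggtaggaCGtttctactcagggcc
*Adcy7*, middle window (chr8:88288816-88289115, plus strand): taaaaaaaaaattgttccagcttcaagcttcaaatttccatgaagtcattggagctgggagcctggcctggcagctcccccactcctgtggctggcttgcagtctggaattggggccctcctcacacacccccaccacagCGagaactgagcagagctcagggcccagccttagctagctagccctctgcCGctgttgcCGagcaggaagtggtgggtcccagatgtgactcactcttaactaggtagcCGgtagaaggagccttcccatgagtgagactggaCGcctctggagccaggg
*Adcy7*, last window (chr8:88293954-88294253, plus strand): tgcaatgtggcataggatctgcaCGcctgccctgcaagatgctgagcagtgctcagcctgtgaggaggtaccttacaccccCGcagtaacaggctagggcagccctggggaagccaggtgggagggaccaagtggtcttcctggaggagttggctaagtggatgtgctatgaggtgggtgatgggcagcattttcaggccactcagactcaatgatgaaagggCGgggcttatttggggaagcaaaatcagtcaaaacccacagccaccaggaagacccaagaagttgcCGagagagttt
*Adcy9*, only window (chr16:4420449-4420748, minus strand): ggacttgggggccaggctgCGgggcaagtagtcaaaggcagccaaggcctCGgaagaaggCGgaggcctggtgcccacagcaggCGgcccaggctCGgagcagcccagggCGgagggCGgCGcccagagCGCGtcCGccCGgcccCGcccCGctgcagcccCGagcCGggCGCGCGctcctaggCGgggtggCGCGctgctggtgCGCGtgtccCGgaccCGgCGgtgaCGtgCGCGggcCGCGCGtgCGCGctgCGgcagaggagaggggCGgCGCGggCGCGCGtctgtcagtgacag
*Adcy5*, only window (chr16:35154614-35154913, plus strand): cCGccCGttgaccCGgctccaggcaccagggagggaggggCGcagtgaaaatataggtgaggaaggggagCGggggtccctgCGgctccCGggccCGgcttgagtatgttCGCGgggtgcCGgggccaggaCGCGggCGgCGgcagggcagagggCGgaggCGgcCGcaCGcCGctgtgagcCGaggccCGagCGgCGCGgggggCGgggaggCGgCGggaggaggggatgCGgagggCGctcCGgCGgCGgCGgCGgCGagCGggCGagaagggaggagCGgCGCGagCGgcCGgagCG

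The 3 windows of *Adcy7* held 6, 5 and 4 CpG, below the median of 7 over all 32851 windows. Whether any of them covers the first annotated start of the gene on mm9 was not checked. The *Adcy9* window held 42 CpG and that of *Adcy5* held 44, more than in 97.0% and 97.8% of all windows. Among the other genes the windows held 37 CpG for *Adcy1*, 32 for *Adcy2*, 33 and 7 for the 2 windows of *Adcy3*, 16 for *Adcy4* and 5 for *Adcy10*. CpG-rich windows thus occurred at genes above 1 FPKM (*Adcy9*, *Adcy3*), at genes of 0.22 to 0.38 FPKM (*Adcy1*, *Adcy2*) and at a gene listed at 0 (*Adcy5*). A TFAP2 core, GCCNNNGGC on either strand, was found in 2 of the 11 windows, the CpG-rich one of *Adcy3* and that of *Adcy9*, and in 16.6% of all windows. The paper's promoter work used a shorter TFAP2A consensus, GCCNNNGG, which was not counted here. A window without the longer core can still hold the shorter one, as the last *Adcy7* window does. The M-box core CATGTG of MITF was in 1 window, that of *Adcy10*, and in 14.2% of all windows. An E-box, CACGTG, was in the window of *Adcy1* and in 7.15% of all. The cAMP response element TGACGTCA was in no cyclase window and in 1.79% of all, and its TGACG part, which the full element contains, was in the first *Adcy7* window and the *Adcy9* window and in 20.8% of all. A TATAAA box was in none of the 11 and in 13.6% of all windows. These matches are letters in a window and not measured binding, and the paper's TFAP2A ChIP-seq in melan-a cells was not used here.

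Upstream of the cyclases, mRNA of both the receptor and the stimulatory G protein was present. Protein and cyclase activity were not measured, so the ratios below are of mRNA only. *Mc1r*, the receptor for alpha-melanocyte-stimulating hormone, had 20.58, 23.74 and 18.19 FPKM, so that *Adcy7* alone was 1.84 ± 0.12 times and all cyclases together 2.91 ± 0.15 times its level (SD, n = 3). Of 27 receptors known to couple to the stimulatory G protein 2 reached 1 FPKM in all replicates, where 44.1% of all genes did. They were *Mc1r* and the prostacyclin receptor *Ptgir* (1.38 ± 0.18 FPKM), and the list's median was 0.003 FPKM. *Gnas*, which encodes the stimulatory alpha subunit on which cholera toxin acts, had 142.89, 144.11 and 126.98 FPKM, 2.29 ± 0.11 times the summed cyclases, while its olfactory counterpart *Gnal* had 0.05 ± 0.02.

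Among the inhibitory and related alpha subunits 3 of 5 passed 1 FPKM, beside 44.1% of all genes. *Gnai2* was at 558 ± 122 FPKM, *Gnai3* at 26.1 ± 4.9 and *Gnao1* at 15.5 ± 2.4, and their class summed to more than *Gnas* in 3 of 3 replicates. Of 17 receptors listed as able to couple to inhibitory G proteins *Ednrb* (6.63 ± 1.19 FPKM), the endothelin receptor of melanocytes, and *Gabbr1* (2.06 ± 0.38) passed. Which G proteins these receptors use in these cells was not measured. The beta subunits passed in 4 of 5 genes, led by *Gnb1* (152 ± 10 FPKM) and *Gnb2* (148 ± 32), and the gamma subunits in 6 of 12, led by *Gng7* (29.1 ± 3.6) and *Gng12* (26.5 ± 2.2). The lists are short, and the count of gamma subunits is near the share of all genes.

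Of 14 genes for proteins that bind or modulate the cyclases 11 passed 1 FPKM, beside 44.1% of all genes. The highest were *Cap1* (379 ± 19 FPKM), the calmodulin genes *Calm3* (272 ± 40) and *Calm2* (268 ± 29), and the scaffold *Akap12* (189 ± 18). *Ric8b*, the chaperone of the stimulatory alpha subunit, had 5.97 ± 0.81 FPKM. Guanylyl cyclases, the enzymes that make cyclic GMP, gave 1 of 11 genes above 1 FPKM, the C-type natriuretic peptide receptor *Npr2* at 23.27, 23.23 and 18.09 FPKM. The summed adenylyl cyclases exceeded the summed guanylyl cyclases by 2.69, 2.81 and 2.90 times.

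**Figure D5:**
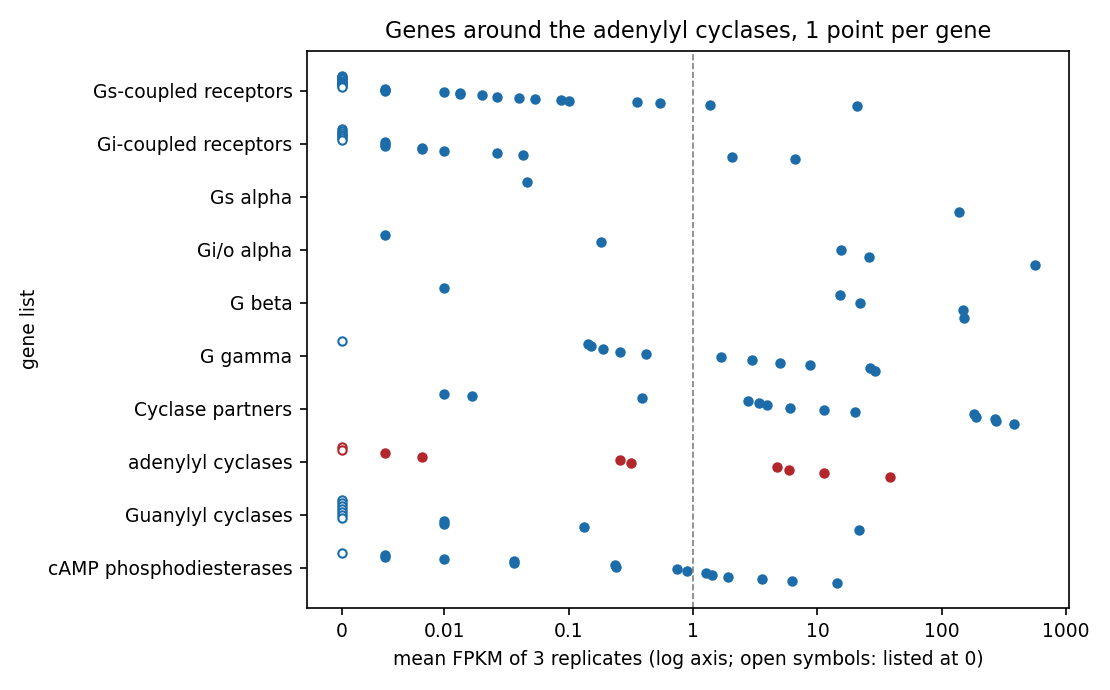
Mean FPKM over the 3 replicates (log axis) of the genes in 10 lists, 1 point per gene and the adenylyl cyclases in red, with open symbols for genes listed at 0 and a dashed line at 1 FPKM. Single genes stand far above the rest among receptors coupled to the stimulatory G protein (*Mc1r*, 20.8 FPKM), stimulatory alpha subunits (*Gnas*, 138 FPKM) and guanylyl cyclases (*Npr2*, 21.5 FPKM), while 4 adenylyl cyclases spread from 4.69 to 38.1 FPKM.

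The 3 genes whose levels over the 3 replicates were closest to those of *Adcy7* were *Tenc1*, *Tmem173* and *Gbf1*, at distances of 0.026, 0.039 and 0.046 on the log2(FPKM + 0.1) scale. *Tenc1*, for example, had 39.57, 40.17 and 34.86 FPKM. With 3 libraries of 1 condition this says only that their levels were alike.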

How the data were processed

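RNA-seq of 3 untreated melan-a replicates was used, each sequenced on 3 lanes. Per the paper's methods and the labels, the authors made stranded mRNA libraries, trimmed the 10 5′-most bases, aligned with STAR 2.3.0e to mm9, removed rRNA reads and counted on Ensembl release 67 with HTSeq 0.5.3p3. The authors deposited FPKM values, which the names of their files mark as TMM-scaled (trimmed mean of M-values). The conversion, the gene length used and the strand setting are not given in the sources used here.

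Symbols, positions, joined exon lengths and transcripts were taken from Ensembl release 65 on mm9, where 22324 of the 22698 genes were found. FPKM are not counts, and with a single condition no groups were tested. Library sizes were estimated from single-transcript genes of at most 600 bases (124, 124 and 139 genes), on which low values fell 0.050, 0.052 and 0.071 reads from a whole number on average. The sizes were chosen to make these distances smallest, so the distances are no separate check. Reads per gene assume joined exons as the length. For genes with several transcripts, as most cyclases are, this length gave 0.191, 0.157 and 0.206 reads from a whole number (18 to 21 genes), so their read numbers are approximate. The longest transcript as length gave 0.235, 0.305 and 0.220, so in replicate 4 these lengths were hardly told apart. Intervals are exact Poisson intervals at 95%. The log2 pseudocount was 0.1 and the level threshold 1 FPKM, with no other filter on low values. GC adjustment subtracted a lowess curve of log2 deviation from the mean over replicates against GC content. Library size and GC steps were tested on simulated data.

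Named genes were all members, the melanocyte markers and *Cdkn2a*, at most 4 genes per list that passed 1 FPKM with the highest means, and the 3 genes closest to *Adcy7*. The list of cAMP effectors is reported in part. Other genes named (*Gnal*, *Ric8b*, *Cenpo*, markers of other cell types) were added after their values were seen. The members and the lists were chosen with earlier results of these data known. Alternatives were each replicate left out, 2 rescalings, the median, another length, GC adjustment, other thresholds, pseudocounts and background. Tools were Python 3.11.15 with scipy 1.17.1, statsmodels 0.14.6, pandas 2.3.3, numpy 2.4.6 and matplotlib 3.10.9.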

Additional observations from a re-analysis of the deposited data

How the results depend on the processing

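The first 4 genes kept the order *Adcy7*, *Adcy6*, *Adcy3*, *Adcy9* under every alternative run, and 4 members reached the threshold at 0.5 and at 2 FPKM too. Rescaling each replicate to sum to 1000000 changes the unit: *Adcy7* then had 101 and the 10 members 160.2, or 113 and 179 outside the mitochondrial genome. Thresholds of 0.5 and 2 FPKM were reached by 47.0% and 39.7% of all genes. At 2 FPKM, 1 receptor coupled to stimulatory and 1 coupled to inhibitory G proteins passed, and 3 phosphodiesterases. With each replicate left out, *Adcy7* had 37.0 to 39.7 FPKM, the sum 58.0 to 64.4, and its log2 ratio to *Adcy6* 1.69 to 1.82. The number of separate neighbours was 4 to 6. Of 288 values recomputed 265 stayed within 1 SD, or within 1.5 times for counts. Many of these could not move. Leaving out 1 replicate or taking the median always shifts a mean of 3 by less than 1 SD. Class shares do not change on rescaling, and list counts do not depend on the background. The total is therefore no measure of how stable the results are. Among genes above 0 in all replicates 73.4% reached 1 FPKM. Depth limits *Adcy4*, *Adcy5*, *Adcy8* and *Adcy10*, which rest on 0 to 6 reads. No paired analysis was possible because a single group leaves no samples to pair between groups. Genes were compared within replicates.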

Other observations

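Downstream of cAMP, 6 of 16 phosphodiesterase genes reached 1 FPKM in all replicates, near the 44.1% of all genes. The count depended on the threshold, with 8 at 0.5 FPKM and 3 at 2 FPKM, levels reached by 47.0% and 39.7% of all genes. The highest was *Pde8a*, which encodes a cAMP-specific enzyme of high affinity, at 14.61, 14.55 and 13.77 FPKM. *Pde11a* followed at 6.30, 5.59 and 6.74 FPKM, then *Pde4d* at 3.57, 3.40 and 3.70 and *Pde1b* at 1.84, 2.14 and 1.77. The ranges of these 4 genes did not overlap.

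Among effectors of cAMP outside protein kinase A, the exchange factors *Rapgef4* and *Rapgef3* had 19.5 ± 5.2 and 10.5 ± 0.7 FPKM. *Rapgef4* ranged from 14.63 FPKM in replicate 3 to 24.96 in replicate 4.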
